A study of Mus musculus with 6 samples.

Results

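Carboxylesterases are serine hydrolases that cut esters, amides and thioesters, and in the mouse their genes lie in 2 clusters on chromosome 8. The 10 genes described are Ces1b, Ces1c, Ces1d, Ces1e, Ces1f, Ces1g, Ces2a, Ces2c, Ces2e and Ces3a, chosen by gene symbol from 20 carboxylesterase genes of both clusters and 54532 genes in the count table. Liver RNA was sequenced from male C57BL/6J mice in which a high-fat diet, given for 6 weeks from 8 weeks of age, had produced insulin resistance (IR). After a 16 h fast, 3 of the sequenced livers came from IR mice injected intraperitoneally with insulin at 0.75 units/kg (IR insulin) and 3 from IR mice given bovine serum albumin, the vehicle of the insulin (IR vehicle), with the livers taken 6 h later. No chow-fed liver and no time other than 6 h was analysed here, so each value describes fasted, diet-fed mice. The comparison asks which hepatic transcripts differ after insulin in the insulin-resistant state.

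Most liver carboxylesterases sit in the lumen of the endoplasmic reticulum, where they hydrolyse drugs, prodrugs and the acyl esters of stored or newly made lipid. A serine in a short conserved motif attacks the ester bond, with a histidine and an acidic residue completing the catalytic triad. A short signal at the carboxyl end retrieves many of them to the endoplasmic reticulum, and Ces1c, which lacks it, is the carboxylesterase that mouse liver secretes into plasma. The families grew by tandem duplication, so neighbouring genes are much alike in sequence.

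The libraries held 18449986 to 21827619 read counts. Between 18389 and 18874 genes had a count in 5 libraries and 16470 in vehicle replicate 2, which stood apart from the rest, as did vehicle replicate 3 (chi-square per degree of freedom between these 2 libraries 528, against 27.1 for the closest pair, vehicle replicate 1 and insulin replicate 2). All 8 hepatocyte markers (Alb, Apoa1, Ttr, Hnf4a, Cps1, Tat, Cyp7a1 and F2) were detected, and their summed level ranged between 66130 and 154500 CPM (read counts relative to the library's total, itself scaled by TMM) with vehicle and between 55190 and 70040 CPM with insulin. Alb made up most of that sum and was highest in vehicle replicate 2, at 138550 CPM, where Apoa1, Hnf4a, Tat and F2 were at their lowest. In bulk liver, fewer cells of a type and less RNA per cell cannot be told apart.

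The Ces1 cluster spans 515.6 kb of the minus strand (GRCm38, chr8:93020214-93535830) and holds 9 carboxylesterase genes, 6 of them among the 10 described. The Ces2 and Ces3 cluster spans 416.1 kb of the plus strand (chr8:104734003-105150109) and holds 11, with 4 among the 10. Their longest coding transcripts have 12 to 14 exons. Coding identity in global alignments was 74.5 to 91.1% over the 15 pairs within Ces1, 83.0 to 84.0% over the 3 pairs within Ces2, and 62.6 to 67.2% over the 27 pairs of different classes. The stretch of 63 coding bases that ends with the active-site motif, whose serine codon is number 221 in Ces1b and Ces1c, shows how close the paralogs are. It is given below from GENCODE release 21 transcripts (GRCm38), 5′ to 3′ in the sense direction. Capitals mark the bases that differ from the commonest base among the 10 genes, and the genes shown are those with the most windows in common with another gene, Ces2b as a near copy of Ces2c, and Ces1d as the one with the fewest differences.
Ces1b (chr8:93071888-93071950, minus strand): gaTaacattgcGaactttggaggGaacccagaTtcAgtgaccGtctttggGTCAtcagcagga
Ces1c (chr8:93123121-93123183, minus strand): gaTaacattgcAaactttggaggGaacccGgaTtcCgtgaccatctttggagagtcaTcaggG
Ces1d (chr8:93187764-93187826, minus strand): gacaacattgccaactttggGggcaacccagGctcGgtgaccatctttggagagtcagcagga
Ces2a (chr8:104737362-104737424, plus strand): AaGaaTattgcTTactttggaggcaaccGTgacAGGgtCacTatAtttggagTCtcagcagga
Ces2b (chr8:104834894-104834956, plus strand): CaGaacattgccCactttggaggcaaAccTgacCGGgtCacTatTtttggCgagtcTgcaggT
Ces2c (chr8:104850720-104850782, plus strand): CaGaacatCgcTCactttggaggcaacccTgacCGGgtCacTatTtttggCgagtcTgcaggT
Ces3a (chr8:105051538-105051600, plus strand): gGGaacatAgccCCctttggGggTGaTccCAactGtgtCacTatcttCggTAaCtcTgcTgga

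All 10 genes had the same base at 28 of the 63 positions. Ces3b had the same 63 bases as Ces3a. Ces2b, a paralog outside the 10, differed from Ces2c at 3 positions, and Ces1b differed from Ces1c at 10. Over the whole coding sequence, identity was 95.3% between Ces3a and Ces3b, 92.1% between Ces2b and Ces2c, and 91.1% between Ces1b and Ces1c.

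The last 30 coding bases before the stop codon separated Ces1b and Ces1c from the rest. In 8 of the 10 genes they ended with a glutamate codon and a leucine codon, set in capitals below. The 2 without this end were Ces1b and Ces1c. Only these last 6 bases were read, so the whole retrieval signal was not examined. Ces1d, Ces2a and Ces3a stand for the 3 classes.
Ces1b (chr8:93056890-93056919, minus strand): acagaccctactgagcacagagaacacaaa
Ces1c (chr8:93099168-93099197, minus strand): acagaccctactgaacacacagaacacaaa
Ces1d (chr8:93166258-93166287, minus strand): aggccatcccacagggaacatgttGAGCTC
Ces2a (chr8:104741384-104741413, plus strand): aagggttctcaggacaagcatgcaGAGCTG
Ces3a (chr8:105058071-105058100, plus strand): cagagaagcaggaaagttccagagGAGCTC

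Reads that lie wholly within an identical stretch cannot be placed by sequence. The read length of these libraries was not stated, so identity was measured in windows of 50 and 100 bases. Of the 50-base windows of the longest transcript, 42.2% recurred unchanged in a transcript of another gene for Ces2c, 30.9% for Ces3a, 22.2% for Ces2a, 17.0% for Ces1c and 11.6% for Ces1b, and 1.28 to 3.36% for the other 5 genes. At 100 bases the shares were 16.0% for Ces2c, 10.8% for Ces2a, 9.09% for Ces3a, 1.39% for Ces1c and 1.29% for Ces1b, and none of the windows of the other 5 genes recurred. The main partners were the pseudogene Ces2d-ps for Ces2c (734 windows of 50 bases), Ces3b for Ces3a (617), the predicted gene Gm7208 for Ces2a (399), and Ces1b and Ces1c for each other (190). The longest run shared by Ces1b and Ces1c was 118 coding bases long, shown here as the longest stretch in which these 2 genes cannot be told apart.
Ces1b (chr8:93056906-93057023, minus strand) and Ces1c (chr8:93099184-93099301, minus strand): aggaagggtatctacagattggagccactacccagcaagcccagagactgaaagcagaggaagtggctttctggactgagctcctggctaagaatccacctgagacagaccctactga

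**Figure D1:**
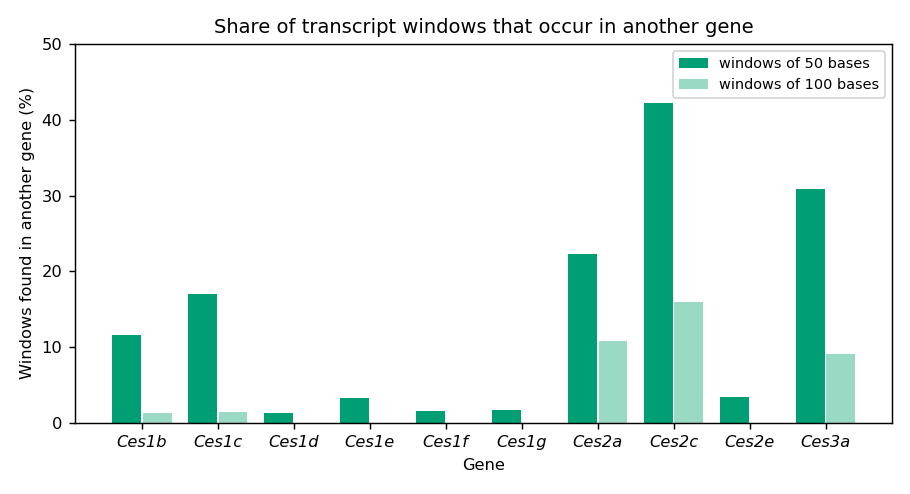
Share of windows of a gene's longest transcript (%) that occur unchanged in a transcript of another gene, for the 10 carboxylesterases; dark bars are windows of 50 bases and pale bars windows of 100 bases. Ces2c has the tallest bars, at 42.2% and 16.0%, and Ces1d, Ces1e, Ces1f, Ces1g and Ces2e have no pale bar.

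The 10 genes took 0.377% (95% interval 0.374 to 0.379%, insulin replicate 3) to 0.512% (0.509 to 0.515%, vehicle replicate 3) of all counts of a library. Per length, as CPM per kilobase of the longest transcript over all 6 libraries (mean ± SD, n = 6), Ces1c stood at 857 ± 243 and Ces3a at 763 ± 69.1. Ces1d followed at 206 ± 54.5, Ces1f at 150.4 ± 35.5 and Ces2a at 99.3 ± 72.9. Below them lay Ces2e at 66.2 ± 23.8, Ces1g at 49.0 ± 12.0, Ces1e at 42.4 ± 7.68, Ces1b at 31.2 ± 16.6 and Ces2c at 16.8 ± 10.6, so the mean of the first was 51.0 times that of the last. The whole transcript length was used. How reads in stretches shared with other genes were counted is not known, and the order and this ratio carry that limit. Of the 9 pairs of neighbours in this order, only Ces3a and Ces1d had ranges over the libraries that did not overlap. Within libraries, 2 pairs kept their order in all 6, Ces3a above Ces1d and Ces1d above Ces1f (mean log2 difference 0.43 ± 0.27, SD, n = 6). The other neighbours changed places in at least 1 library. Without vehicle replicate 3, Ces2a and Ces2e changed places and 2 pairs were separate. Ces1c and Ces3a together made up 67.3% (67.0 to 67.6%, insulin replicate 2) to 72.6% (72.2 to 72.9%, insulin replicate 3) of the counts of the 10 genes. Ces3a varied least between libraries, with a coefficient of variation of 9.06%, and Ces2a varied most, at 73.4%.

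**Figure D2:**
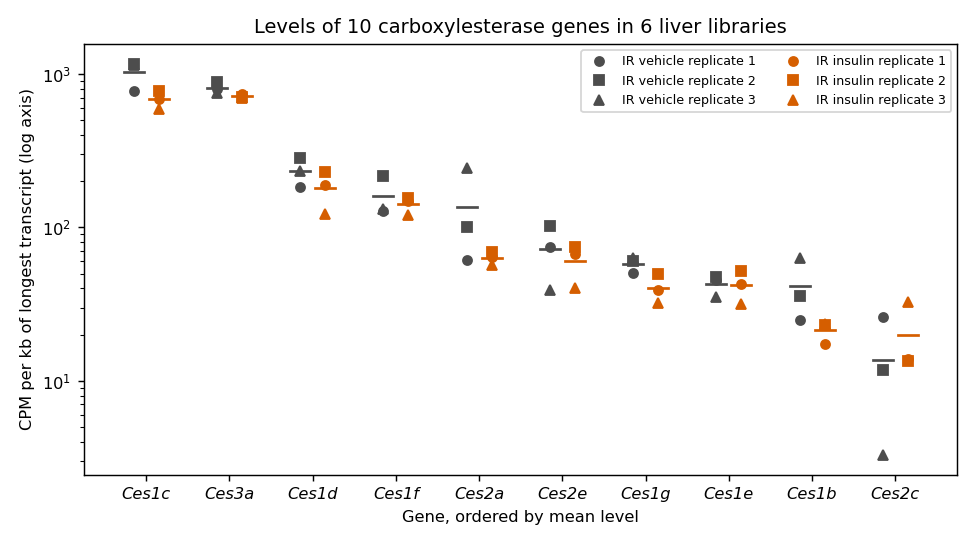
Level of each gene in each library as CPM per kilobase of the longest transcript (log axis), genes ordered by mean level; grey marks are the 3 IR vehicle libraries, orange marks the 3 IR insulin libraries, and bars are group means. Ces1c (mean 857) and Ces3a (mean 763) lie above the other 8 genes in every library, and the vehicle marks of Ces2a and Ces2c spread widest.

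Of the 10 genes, 9 had a lower fitted level in IR insulin than in IR vehicle and 1, Ces2c, a higher one, where 51.4% of the 13377 genes tested had a fitted log2 fold change below 0. The median log2 fold change (insulin over vehicle) was −0.31 over the 10, within a range of −1.10 to 0.54, and −0.017 over all genes tested; the 10 genes come from the same libraries, so they are not independent. By edgeR's quasi-likelihood test, none was below 0.05 after Benjamini-Hochberg adjustment (lowest adjusted p = 0.852; 0% of all genes tested), and none was with DESeq2 or with limma's voom. The study's own criteria, an unadjusted p under 0.05 with a log2 fold change of 0.35 or more in size, were passed by 2 of the 10, Ces1b and Ces2a, both lower, against 2.86% of all genes tested in either direction and 1.86% in the lower direction. For 3 of the 10, Ces1b, Ces1g and Ces3a, every insulin value lay below every vehicle value, and no gene of the 10 showed the opposite. Groups without overlap were found for 12.3% of all genes tested, 6.04% lower and 6.25% higher with insulin. These counts moved when 1 library was left out. Of the 10 genes, 2 passed the criteria without vehicle replicate 2, against 481 of all 13377 genes tested. Without vehicle replicate 1 it was 3, against 1323 of all genes, and without vehicle replicate 3 it was 0, against 876. Without any one of the 3 insulin libraries it was 0, against 90 to 128 of all genes. With all libraries, 383 of all genes passed. Without vehicle replicate 1, 7 of the 10 had groups without overlap, but so did 30.7% of all genes tested. With each library left out in turn, 2 libraries were set against 3. The share of all genes without overlap was then 17.9 to 31.2%.

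**Figure D3:**
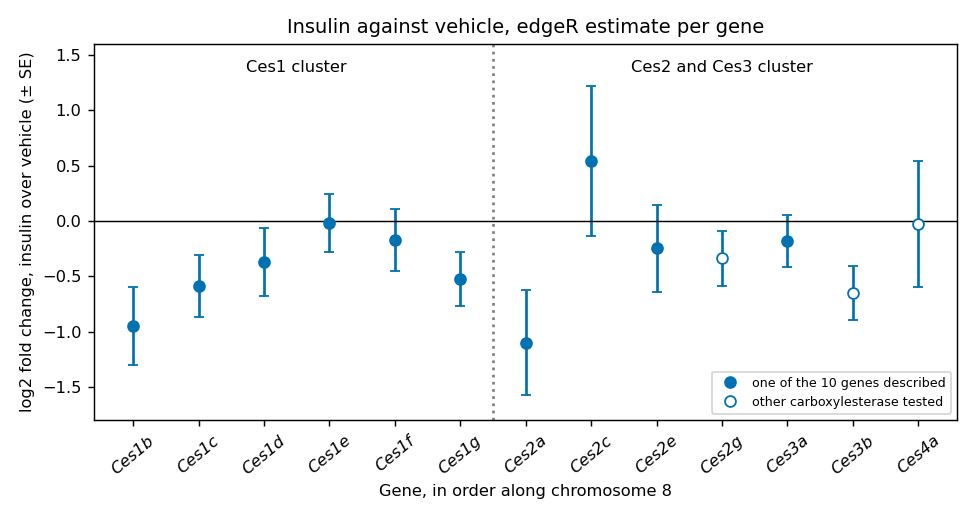
Log2 fold change of insulin over vehicle with its standard error (edgeR, 3 libraries a group) for the 13 carboxylesterases tested, in their order along chromosome 8; filled points are the 10 genes described, open points Ces2g, Ces3b and Ces4a, and the dotted line parts the clusters. Ces2c is the one point above 0, at 0.54, and its error bar crosses 0.

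In the Ces1 cluster, Ces1b had the largest difference, and those of Ces1c and Ces1g were close to each other, with an order that turned under several alternatives. Ces1b, a little-studied relative of the plasma enzyme, had 49.1, 70.1 and 124 CPM in vehicle replicates 1, 2 and 3, against 34.3, 45.2 and 46.0 CPM in insulin replicates 1, 2 and 3. Every insulin value lay below every vehicle value, and vehicle replicate 3 was far above the rest. The means were 80.9 ± 38.4 CPM and 41.8 ± 6.55 CPM (SD, n = 3 each), with a log2 fold change of −0.95 ± 0.35 (SE; edgeR unadjusted p = 0.0272, adjusted p = 0.852). Without vehicle replicate 3 it was −0.51 (unadjusted p = 0.0857), and the p was also above 0.05 without insulin replicate 1 (0.0976), 2 (0.0581) or 3 (0.0582), with log2 fold changes of −0.82 to −1.02. With limma's voom and sample weights the log2 fold change of Ces1b was −0.62 (unadjusted p = 0.0603).

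Ces1c, the secreted plasma carboxylesterase, was measured at 1409, 2138 and 2094 CPM in vehicle replicates 1 to 3 and at 1259.9, 1426 and 1076 CPM in insulin replicates 1 to 3. Vehicle replicates 2 and 3 were higher than the other libraries, and vehicle replicate 1 lay just below insulin replicate 2, so the groups overlapped. The log2 fold change was −0.58 ± 0.28 (edgeR unadjusted p = 0.0713, adjusted p = 0.852). Without vehicle replicate 1 it was −0.75 (unadjusted p = 0.0237). Ces1b counts were 2.65% (95% interval 2.47 to 2.84%, insulin replicate 1) to 5.57% (5.36 to 5.78%, vehicle replicate 3) of the Ces1b and Ces1c counts together. The sum of the pair had a log2 ratio of group means of −0.60, close to that of Ces1c alone.

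Ces1g, a hepatic esterase studied for its part in lipid handling, was the other Ces1 gene whose groups did not overlap. It was measured at 119.5, 144 and 150.4 CPM with vehicle, against 92.7, 119.0 and 76.2 CPM with insulin. The lowest vehicle value and the highest insulin value were almost level. With an offset for GC content the groups of Ces1g overlapped. Its log2 fold change was −0.52 ± 0.25 (edgeR unadjusted p = 0.0655, adjusted p = 0.852). Centred on each gene's mean over the 6 libraries, Ces1c and Ces1g had the most similar values of any pair of the 10 (root mean square difference 0.123 on the log2 CPM scale).

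The other Ces1 genes overlapped between the groups. Ces1d, a triacylglycerol hydrolase of the endoplasmic reticulum that supplies lipid for very low density lipoprotein, was measured at 368, 564 and 464 CPM with vehicle, against 376, 458 and 243 CPM with insulin. Insulin replicate 3 was the low library and vehicle replicate 2 the high one, and the log2 fold change was −0.37 ± 0.31 (edgeR unadjusted p = 0.259). Ces1f, another hydrolase of neutral lipid, was measured at 248, 419 and 254 CPM with vehicle, against 285, 301 and 231 CPM with insulin. Apart from vehicle replicate 2, its values lay within a narrow band, and the log2 fold change was −0.17 ± 0.28 (edgeR unadjusted p = 0.561). Ces1e, known as egasyn, which holds β-glucuronidase in the endoplasmic reticulum, was measured at 93.8, 98.5 and 73.3 CPM with vehicle, against 89.1, 108 and 65.4 CPM with insulin. Replicate 3 was the lowest of each group, and the log2 fold change of −0.018 ± 0.26 (edgeR unadjusted p = 0.946) changed sign under 6 of 15 other analyses.

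In the Ces2 and Ces3 cluster, the order of the 6 libraries by Ces2a level was the exact reverse of their order by Ces2c level, a pattern noticed after the values were seen. Ces2a, an esterase of drugs and of acylglycerols, had 121, 196 and 479.7 CPM in vehicle replicates 1, 2 and 3, against 126, 135 and 111 CPM in insulin replicates 1, 2 and 3. Vehicle replicate 3 was far above all other libraries, and vehicle replicate 1 lay among the insulin values, so the groups overlapped. The means were 265 ± 189 CPM and 124 ± 12.0 CPM (SD, n = 3 each), with a log2 fold change of −1.10 ± 0.47 (edgeR unadjusted p = 0.0488, adjusted p = 0.852). Without vehicle replicate 3 it was −0.35 (unadjusted p = 0.230). The p was also above 0.05 without insulin replicate 1 (0.104), 2 (0.0887) or 3 (0.131), with upper-quartile size factors (0.0590), with a filter of at least 1 CPM in 3 libraries (0.0505) and with limma's voom and sample weights (0.246, log2 fold change −0.42).

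Ces2c, the mouse gene often set beside human CES2, an esterase of intestine and liver, was measured at 51.4, 23.1 and 6.44 CPM with vehicle, against 27.2, 26.3 and 64.3 CPM with insulin. Its lowest value was in vehicle replicate 3, where Ces2a was highest, and its highest in insulin replicate 3, where Ces2a was lowest. The highest value was 9.99 times the lowest, the widest range of the 10 genes. The ratio of Ces2a to Ces2c CPM was 2.35, 8.49 and 74.5 in vehicle replicates 1 to 3 and 4.63, 5.13 and 1.73 in insulin replicates 1 to 3. This ratio, too, was chosen after its values were seen and was not tested. The log2 fold change of Ces2c was 0.54 ± 0.68 (edgeR unadjusted p = 0.448), and it was 1.41 (unadjusted p = 0.0763) without vehicle replicate 1, 0.075 (unadjusted p = 0.886) without vehicle replicate 3 and −0.0040 (unadjusted p = 0.996) without insulin replicate 3.

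Ces2b, the near copy of Ces2c, had 13, 7 and 0 counts in the vehicle libraries and 6, 4 and 130 in the insulin libraries. It was at its lowest and highest in the same libraries as Ces2c, and the 2 genes share 99 windows of 50 bases. Summing Ces2c with Ces2b, Ces2d-ps and the predicted genes Gm8798 and Gm6831 gave a log2 ratio of group means of 0.61, of which Ces2c held 90.6 to 98.5% in each library. Summing Ces2a with Gm7208, which had at most 6 counts, left its ratio at −1.10.

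Ces2e, a further class 2 esterase of liver and intestine, was measured at 201, 275 and 106 CPM with vehicle, against 181, 201 and 108 CPM with insulin. Replicate 3 was the low library of both groups, at almost the same level. The log2 fold change was −0.25 ± 0.39 (edgeR unadjusted p = 0.543).

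Ces3a, a class 3 esterase abundant in mouse liver, was measured at 1640, 1804 and 1531 CPM with vehicle, against 1514, 1446 and 1426 CPM with insulin. All insulin values lay below all vehicle values, but the gap between them was small, and the log2 fold change was −0.18 ± 0.24 (edgeR unadjusted p = 0.463). With upper-quartile size factors the groups of Ces3a overlapped. Its neighbour Ces3b, which was not among the 10, was measured at 337, 464 and 441 CPM with vehicle, against 303, 243 and 245 CPM with insulin, again without overlap. The log2 fold change of Ces3b was −0.65 ± 0.24 (edgeR unadjusted p = 0.0272, adjusted p = 0.852), past the study's criteria. Its unadjusted p was 0.0509, 0.113 and 0.102 without insulin replicates 1, 2 and 3, and 0.0512 with voom. For the sum of Ces3a and Ces3b, of which Ces3a held 77.7 to 85.6%, the log2 ratio of group means was −0.26. Ces3a is overlapped on the opposite strand by Gm45724 and Ces1d on the same strand by Gm45909; these had 4 to 33 and 1 to 14 counts, against at least 29388 and 5270 for Ces3a and Ces1d.

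**Figure D4:**
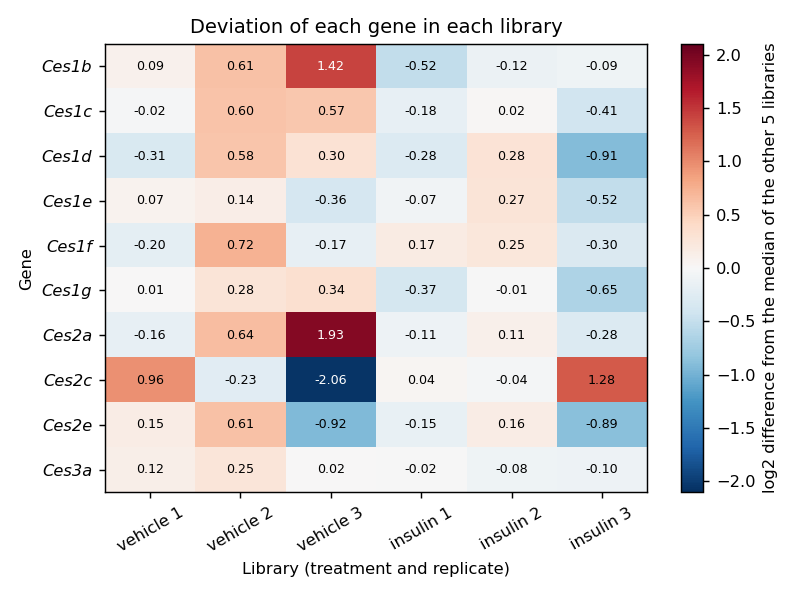
Log2 difference of each gene in each library from the median of the other 5 libraries; red is higher, blue is lower, and each cell prints its value. Vehicle replicate 3 holds the most extreme cells, Ces2a at 1.93, Ces1b at 1.42 and Ces2c at −2.06.

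By library, 5 of the 10 genes were highest in vehicle replicate 2 and 3 in vehicle replicate 3, while 7 were lowest in insulin replicate 3. The TMM factor, by which the library's total is scaled, was lowest in vehicle replicate 2 (0.829) and highest in insulin replicate 3 (1.09). A low factor raises the CPM of every gene in a library and a high one lowers it. How far these counts rest on the scaling was not tested. Ces1b and Ces2a, from different clusters and classes, differed from each other by a root mean square of 0.262 on the centred log2 CPM scale, less than Ces1b from Ces1c (0.36), the gene with which it has the most windows in common. The 8 markers of periportal hepatocytes (Cyp2f2, Hal, Sds, Ass1, Pck1, Hsd17b13, Gls2 and Pigr), all of them detected, summed to 11120 CPM in vehicle replicate 3 and to 3513 to 5000 CPM in the other 5 libraries. In vehicle replicate 3, Ass1 (3970 CPM) and Pck1 (3543 CPM) made up most of that sum. Pigr was not highest there (1010 CPM, against 1056 CPM in vehicle replicate 2). Every other marker of this list was, Hsd17b13 by little (414 CPM, against 382 CPM in vehicle replicate 2). The 8 pericentral markers (Glul, Cyp2e1, Oat, Cyp1a2, Slc1a2, Axin2, Lgr5 and Rgn) summed to 13240 to 20220 CPM with vehicle and 10880 to 13520 CPM with insulin. Cyp2e1 made up most of that sum. The fitted log2 fold change was above 0 for Glul (0.34), Axin2 (0.54) and Slc1a2 (0.015) and below 0 for the other pericentral markers. The part of these markers in the carboxylesterase results was not tested. The median GC content of the longest transcripts was 48.8% for the 10 genes and 49.4% for the genes tested, and with an offset for GC content the log2 fold changes were −0.98 (unadjusted p = 0.0223) for Ces1b and −1.20 (unadjusted p = 0.0287) for Ces2a.

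Several carboxylesterases are also made outside hepatocytes, so markers of those tissues were read. Of 8 adipocyte markers, Lep was at 0 and Adipoq, Plin1 and Retn were below 1 CPM in every library. The others were Car3 at 644 to 2530 CPM, Cidec at 11.8 to 127, Cfd at 0.143 to 154 and Fabp4 at 17.3 to 45.0. Car3 made up most of the sum of the list, which was 688 to 2585 CPM with vehicle and 801 to 2070 CPM with insulin. Of 8 enterocyte markers, Sis, Cdx1, Cdx2 and Alpi were at 0, and the list, carried by Apoa4 and Fabp2, which liver also makes, summed to 243 to 407 CPM with vehicle and 423 to 679 CPM with insulin. The 8 kidney tubule markers summed to 10.1 CPM in vehicle replicate 2 and to 0.763 to 3.69 CPM in the other libraries. Kap had 38 counts in vehicle replicate 2 and 0 in every other library. The 8 pancreatic acinar markers summed to 14.9 to 18.5 CPM with 6 of them at 0. Cela1, at 14.5 to 18.3 CPM, made up most of that sum. The 8 Kupffer cell markers summed to 269 to 446 CPM with vehicle and 317 to 598 CPM with insulin.

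**Figure D5:**
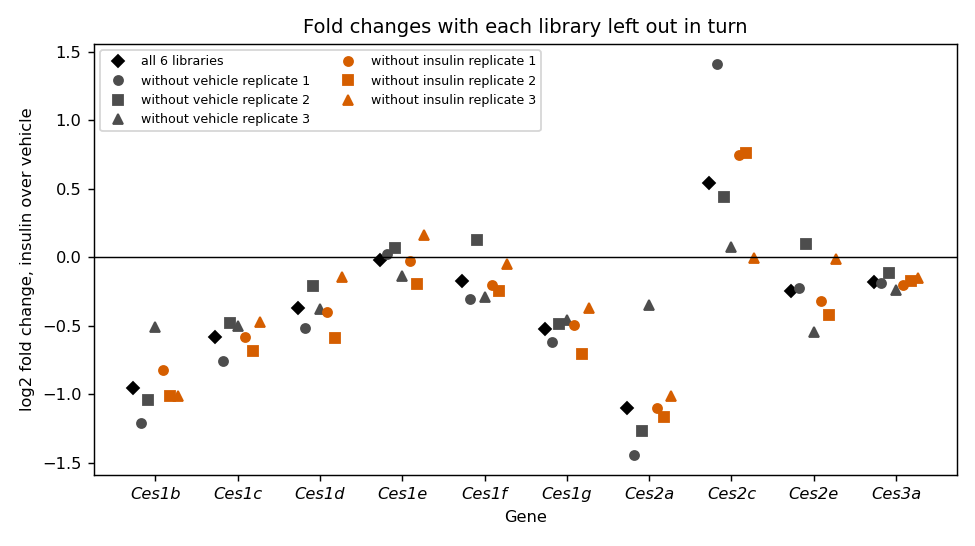
Log2 fold change of insulin over vehicle for each of the 10 genes with all 6 libraries (black diamonds) and with each library left out in turn (grey marks for vehicle, orange for insulin). Without vehicle replicate 3 the values of Ces1b and Ces2a move to −0.51 and −0.35, and those of Ces2c run from −0.0040 to 1.41.

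Among the other carboxylesterases, 3 were tested, and all 3 had fitted values below 0, where 51.4% of all genes tested did. Besides Ces3b, Ces2g was measured at 24.0, 37.1 and 23.3 CPM with vehicle, against 22.8, 23.3 and 20.6 CPM with insulin, with a log2 fold change of −0.34 ± 0.25 (edgeR unadjusted p = 0.216). Ces4a was at 0.715 to 3.87 CPM with a log2 fold change of −0.029 ± 0.57 (edgeR unadjusted p = 0.961). Too little was counted of the rest for a test. Ces1a had 0 to 6 counts a library, Ces1h 0 to 2, Ces2d-ps 0 to 23, Ces2f 0 to 1 and Ces2h 0 to 11, and Ces5a had none in any of the 6 libraries.

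A list of 24 other genes, most of them ester hydrolases, was read beside them. It included Gusb, the β-glucuronidase that Ces1e holds in the endoplasmic reticulum. Of 22 tested, 17 had fitted values below 0 and 5 above, with a median log2 fold change of −0.40. Of all genes tested, 51.4% were below 0, with a median of −0.017. In the list 2 genes passed the study's criteria, both lower, against 1.86% of all genes tested in that direction. These were Lypla1, an acyl-protein thioesterase (117, 329.6 and 158 CPM with vehicle, 94.9, 104 and 84.7 CPM with insulin), at −1.09 (edgeR unadjusted p = 0.0221), and Bche, the butyrylcholinesterase of plasma (91.5, 298 and 151 CPM, then 100.9, 92.2 and 68.1 CPM), at −1.05 (unadjusted p = 0.0384). Aadac, a deacetylase of the endoplasmic reticulum that hydrolyses drugs and lipids, was at 415, 1063 and 555 CPM with vehicle, against 403, 398 and 332 CPM with insulin, with a log2 fold change of −0.84 (unadjusted p = 0.0510). All 3 were highest in vehicle replicate 2, without which the values were −0.54 (unadjusted p = 0.0230) for Lypla1, −0.47 (unadjusted p = 0.115) for Bche and −0.36 (unadjusted p = 0.123) for Aadac. With an offset for GC content Bche was at −0.64 (unadjusted p = 0.0534), and with voom Bche was at −0.28 (unadjusted p = 0.323) and Lypla1 at −0.47 (unadjusted p = 0.0557). Leaving out an insulin library took the unadjusted p of Bche to between 0.0625 and 0.126 and, for replicates 1 and 3, that of Lypla1 to 0.0610 and 0.0753. Aadac was at unadjusted p = 0.0152 without vehicle replicate 1 and at 0.0419 without vehicle replicate 3, and ran up to 0.221 over the 15 alternatives.

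Of 10 transcription factors known to act on carboxylesterase genes, 3 had fitted values below 0 and 7 above, and 0 passed the study's criteria. The smallest p values belonged to Cebpa at 0.71 (edgeR unadjusted p = 0.151) and Nr3c1, the glucocorticoid receptor, at −0.56 (unadjusted p = 0.181); vehicle replicate 2 held the lowest value of Cebpa and the highest of Nr3c1. Of the 20 protein-coding genes nearest to the clusters, 13 were tested, 7 with fitted values below 0 and 6 above, with a median of −0.011 and 0 past the criteria. For both lists, the shares of all genes tested were 51.4% below 0 and 2.86% past the criteria. Pdp2, a pyruvate dehydrogenase phosphatase, was at −0.45 (unadjusted p = 0.109), Fam96b, of iron-sulphur protein assembly, at 0.62 (unadjusted p = 0.131), and Fbxl8, an F-box protein, at 0.71 (unadjusted p = 0.143).

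The genes whose centred log2 CPM was most like that of Ces1b and Ces2a over the 6 libraries were sought among 10650 genes that averaged at least 50 counts. For Ces1b they were Hsd17b6, a hydroxysteroid dehydrogenase, with a root mean square difference of 0.104, Kynu, the kynureninase of tryptophan breakdown, at 0.159, and Kdr, a vascular endothelial growth factor receptor, at 0.177. For Ces2a they were Fam13a at 0.119, Amdhd1, an enzyme of histidine breakdown, at 0.131, and Ptprb, a receptor phosphatase of vascular endothelium, at 0.209. All 6 were highest in vehicle replicate 3, as Ces1b and Ces2a were. This follows from how the 6 were chosen and is not a separate result. Hsd17b6 was measured at 99.3, 176 and 269 CPM with vehicle, against 81.3, 96.2 and 107 CPM with insulin, and Amdhd1 at 55.8, 85.9 and 262 CPM with vehicle, against 62.5, 57.1 and 47.7 CPM with insulin.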

How the data were processed

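Read counts of 6 liver libraries were analysed, 3 IR vehicle and 3 IR insulin, grouped by the labels. The authors deposited raw whole-number counts per gene and library. According to the study's methods and the submitters' processing notes, libraries were made with the NEBNext Ultra RNA kit, sequenced on an Illumina HiSeq and aligned with Bowtie2 2.2.3 to mm10. The counting program, annotation release, strand setting and read length are not given in the sources used here. Bowtie2 alone does not align across introns, so reads over exon junctions may be missing, and reads of paralogs may be assigned to the wrong copy.

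Of 54532 genes, 54495 (99.9%) were matched by identifier to GENCODE release 21. CPM are counts scaled by TMM. Groups were compared with edgeR 4.0.16 (quasi-likelihood F test, R 4.3.3, no covariate) over the 13377 genes kept by filterByExpr (minimum count 10, minimum total 15), with Benjamini-Hochberg adjustment over all of them. The biological coefficient of variation was 0.357. Alternatives were RLE and upper-quartile factors, DESeq2 1.42.0, voom with sample weights (limma 3.58.1), other filters, a GC offset (loess span 0.5), a replicate block and each library left out. An exact permutation test (two-sided) was not run, since 3 against 3 libraries allow no p below 0.1. The script was tested on simulated data. Intervals of shares are exact Clopper-Pearson at 95% and cover counting error only. Per the study, the 3 libraries of a group came from independent mice.

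Coding identity came from global alignment with Biopython 1.88. The active-site motif was located in the translated coding sequences, and no separate protein sequences were used. All 10 genes are named; of the other carboxylesterases, all; of the other lists, those past the study's criteria and the 3 of smallest p; and for the 2 genes of smallest p, the 3 genes most alike in pattern. The result for 1 of these genes is not reported here. A pseudocount of 0.1 CPM was used for centred log2 CPM. The genes and lists were chosen with earlier results of these data known.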

Additional observations from a re-analysis of the deposited data

How the results depend on the processing

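No alternative brought any of the 10 genes to an adjusted p under 0.05. The number of all genes past the study's criteria, 383 with all libraries, was 213 with voom and sample weights, 742 without a filter on low counts and 90 to 1323 when each library was omitted in turn (1323 without vehicle replicate 1, 876 without vehicle replicate 3, and 90, 128 and 114 without insulin replicates 1, 2 and 3). Of the 10 genes, the 2 past the criteria became 1 (Ces1b) with upper-quartile factors or with the filter of at least 1 CPM in 3 libraries, 0 with voom, 3 with DESeq2 (Ces1c added) and 0 to 3 when 1 library was left out. The labels do not say that the replicate numbers pair the samples. Deviations from the group means correlated at −0.039, 0.0688 and 0.0174 between libraries of the same number. Whether mice of the same number shared a cage, day or litter was not tested. With the numbers as a replicate block, 1 gene of the 10, Ces1b, passed, beside 321 of all genes. It also passed with the block and a GC offset, beside 335 of all genes. In these 2 fits Ces2a was at edgeR unadjusted p = 0.0990 and 0.0580, Bche at 0.0556 and 0.101, and Ces3b at 0.0778 and 0.0373. Of the vehicle libraries, replicate 2 correlated best with its own number among the insulin libraries, and the other two did not. The count of genes without overlap, 3 of 10, was 2 to 7 with 1 library left out, where 17.9 to 31.2% of all genes tested had no overlap. It was 2 with upper-quartile factors (Ces1b and Ces1g) and 2 with the GC offset (Ces1b and Ces3a). The share of all genes without overlap was not taken under these settings. The median log2 fold change of the 10 stayed below 0 throughout (−0.51 to −0.15 with 1 library left out, −0.11 with voom). The separate neighbours in the order of levels were 1 or 2 with 1 library left out, and the genes with at least 5% of windows shared were 5 at 50 bases and 3 at 100 bases. The cause of these changes was not tested.

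The sign of some fitted log2 fold changes turned. Ces1e (−0.20 to 0.16 with 1 library left out) was at 0.031 with upper-quartile factors, 0.036 with voom, 0.020 without the filter, and 0.025, 0.069 and 0.16 without vehicle replicates 1 and 2 and insulin replicate 3. Ces4a (−0.48 to 0.36) was at 0.029, 0.098 and 0.0080 under the same 3 settings, at 0.20 with the replicate block and 0.018 with block and GC offset, and at 0.18, 0.36 and 0.046 without vehicle replicates 1 and 2 and insulin replicate 2. Ces1f (−0.30 to 0.12) was at 0.12 with voom and 0.12 without vehicle replicate 2, Ces2e (−0.54 to 0.096) and Nr3c1 (−0.83 to 0.022) were at 0.096 and 0.022 without vehicle replicate 2, and Ces2c (−0.0040 to 1.41) was at −0.0040 without insulin replicate 3.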
